A study of Mus musculus with 15 samples.

Results

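The retinal pigment epithelium (RPE) moves chloride, potassium, lactate and water between the photoreceptors and the choroid, and 7 genes for its channels and transporters were followed here in whole RPE/choroid tissue of mice. They were the chloride channel genes Best1 and Clcn2, the potassium channel gene Kcnj13, the lactate transporter genes Slc16a8 and Slc16a1, the transporter chaperone gene Bsg, and the chloride cotransporter gene Slc12a2. They were chosen by name and not by their values, though with earlier results of these data known. They are 7 of the 40481 genes in the count table. All 7 were among the 17991 genes with enough reads to be tested.

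RNA-seq was run on 15 libraries, of which 7 were control and 8 were INK-ATTAC. The control mice had the genotype Abca1/Abcg1 flox/flox LysM-Cre, and the INK-ATTAC mice carried these same alleles together with INK-ATTAC. Both groups are labelled as treated with AP20187 (i.p), so the Abca1 and Abcg1 alleles, the Cre and the drug were shared, and the groups differed by the INK-ATTAC transgene. That transgene drives a fusion of FKBP and caspase 8 from the INK4a promoter, and AP20187, which dimerizes the fusion, is given to remove cells in which that promoter is active, taken as senescent. The comparison asks how the RPE/choroid differs once such cells have been targeted, in mice described as having subretinal drusenoid deposits. The series describes injections every other day over 3 months for the INK-ATTAC mice, and LysM-Cre acts in myeloid cells, so the floxed genes are deleted there and not by design in the RPE. No age is given. Whether the libraries stem from separate animals is not stated, so p-values measure the spread between these libraries, which may in part be technical.

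As background, the RPE takes up chloride at its apical side through the sodium-potassium-chloride cotransporter encoded by Slc12a2, lets potassium return to the subretinal space through the inward rectifier encoded by Kcnj13, and releases chloride at its basal side through channels. It also carries lactate made by photoreceptors to the choroid, taking it up apically through the transporter encoded by Slc16a1 and releasing it basally through the one encoded by Slc16a8, which is found in few tissues besides the RPE. Both lactate transporters need the membrane glycoprotein basigin, the product of Bsg, to reach the cell surface. Variants of BEST1 and KCNJ13 cause inherited retinal disease in people, and loss of Clcn2 in mice is followed by retinal degeneration.

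Total counts ran from 39121503 to 65065950 per library. All 8 RPE marker genes had reads in every library, and their summed level was 64592 to 85988 CPM (read counts scaled to a common library size, after a correction by the trimmed mean of M-values) in control and 71073 to 96838 CPM in INK-ATTAC. The most abundant of them were Rgr, an opsin of the RPE (34319 CPM on average), and Ttr, which carries retinol-binding protein (25404 CPM). Other cell types were present too. The summed level of 12 rod markers was 798 to 2769 CPM in control and 461 to 2511 CPM in INK-ATTAC, and that of 8 fibroblast markers was 3581 to 8696 and 5283 to 7414 CPM. In 8 libraries Xist, which is transcribed from the inactive X chromosome, stood at 70.1 to 108 CPM, and in the other 7 at 0.551 to 1.87 CPM. The high class held 4 control and 4 INK-ATTAC libraries, and the low class held 3 and 4. In bulk tissue, fewer cells of a type and less RNA per cell cannot be told apart.

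The stretch just upstream of the RefSeq start is shown for 4 members, covering the potassium channel, a chloride channel and both lactate transporters. RefSeq promoters were used for 5 of the 7 members (GRCm38.p6), and none was used for Bsg or Slc12a2. The count is of promoters kept here and not of those that RefSeq holds. The 250 bases before the start were searched on both strands for CACGTG and CATGTG, E-boxes of the kind bound by MITF-type factors. They were also searched for TAATCC, the core of OTX and CRX sites, and for the AP-1 site. In all 32851 promoters of the same length, CACGTG occurred in 6.02%, CATGTG in 12.3%, TAATCC in 6.25% and AP-1 in 4.46%, so each is common. Capitals mark a match, and each line reads 5′ to 3′ on the strand of the gene. The stretches are chr1:87394730-87394979 (minus strand) for Kcnj13, chr19:10001634-10001883 (minus) for Best1, chr15:79254749-79254998 (minus) for Slc16a8 and chr3:104638414-104638663 (plus) for Slc16a1.
Kcnj13: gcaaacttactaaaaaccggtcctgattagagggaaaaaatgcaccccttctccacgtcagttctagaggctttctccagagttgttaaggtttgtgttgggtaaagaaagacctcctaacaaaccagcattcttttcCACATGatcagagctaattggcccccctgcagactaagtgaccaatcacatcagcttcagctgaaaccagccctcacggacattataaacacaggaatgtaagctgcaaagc
Best1: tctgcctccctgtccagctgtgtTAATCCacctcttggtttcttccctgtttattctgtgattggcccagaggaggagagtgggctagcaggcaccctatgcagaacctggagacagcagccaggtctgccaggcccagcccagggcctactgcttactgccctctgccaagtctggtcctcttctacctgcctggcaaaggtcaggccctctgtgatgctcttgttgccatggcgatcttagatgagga
Slc16a8: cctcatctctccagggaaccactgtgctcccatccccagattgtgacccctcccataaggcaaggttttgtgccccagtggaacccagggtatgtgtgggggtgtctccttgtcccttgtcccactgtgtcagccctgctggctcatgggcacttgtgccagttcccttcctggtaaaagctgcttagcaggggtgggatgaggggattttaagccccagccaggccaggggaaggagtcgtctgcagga
Slc16a1: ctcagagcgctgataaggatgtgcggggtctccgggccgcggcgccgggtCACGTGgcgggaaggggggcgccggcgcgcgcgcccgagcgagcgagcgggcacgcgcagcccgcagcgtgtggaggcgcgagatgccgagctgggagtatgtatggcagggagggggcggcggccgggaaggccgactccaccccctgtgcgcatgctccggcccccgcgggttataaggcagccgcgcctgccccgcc

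The Kcnj13 stretch held 1 CATGTG E-box, read as CACATG on this strand, at 112 to 107 bases before the start. The Best1 stretch held 1 TAATCC, at 227 to 222 bases before the start. The Slc16a1 stretch held 1 CACGTG, at 200 to 195 bases before the start, and the Slc16a8 stretch held none of the motifs. Clcn2, whose stretch lies wholly inside the annotated gene, is not printed, and its stretch had 66.0% GC and 0 matches. The RefSeq start of Slc16a8 also lies inside its annotated gene, which reaches position 79254761. The printed Slc16a8 stretch therefore overlaps the gene by a few bases. GC content was 45.2% for Kcnj13, 56.8% for Best1, 58.8% for Slc16a8 and 76.4% for Slc16a1, against a median of 52.4% over all promoters. A match is a string of letters and not a binding site, and a missing match says nothing about the factor.

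Per kilobase of exon, the members differed widely in level, in the order Bsg, Kcnj13, Slc16a8, Slc16a1, Slc12a2, Clcn2, Best1. Bsg stood at 2399 ± 293 CPM per kilobase (SD, n = 15) and Kcnj13 at 871 ± 100. Slc16a8 reached 305 ± 50.5 and Slc16a1 reached 91.1 ± 12.3. Those 4 genes formed an abundant set in which no ranges overlapped. Slc12a2 was at 7.18 ± 1.25 CPM per kilobase, Clcn2 at 4.96 ± 0.63 and Best1 at 1.29 ± 0.34. Thus the steps were uneven, with the widest between Slc16a1 and Slc12a2. The ratio of each gene to the next was above 1 in 15 of 15 libraries for each of the 6 neighbouring pairs. The median ratio was 2.82 for Bsg to Kcnj13, 2.99 for Kcnj13 to Slc16a8, 3.42 for Slc16a8 to Slc16a1, 13.5 for Slc16a1 to Slc12a2, 1.45 for Slc12a2 to Clcn2 and 4.08 for Clcn2 to Best1. Only the ranges of Slc12a2 (4.76 to 9.50) and Clcn2 (3.82 to 5.89) overlapped. The order was the same with the longest annotated transcript as the length, although that choice raised Slc12a2 to 12.03 and Clcn2 to 7.57 CPM per kilobase. Best1, a gene known for the RPE, thus had the lowest level per kilobase of the 7, and rested on 48 to 255 reads per library.

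**Figure D1:**
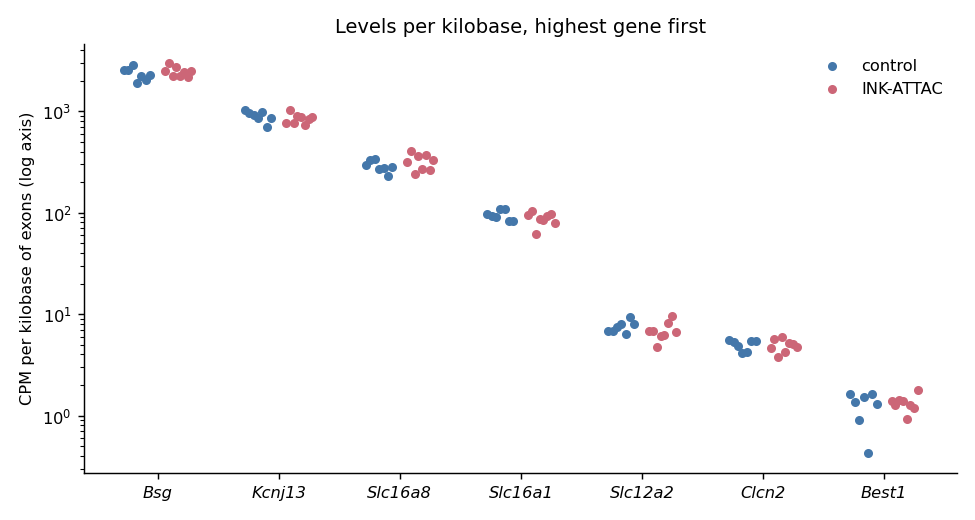
Level of each member in CPM per kilobase of annotated exons (log axis), with 1 point per library, 7 control and 8 INK-ATTAC. The genes run from Bsg at 2399 on average to Best1 at 1.29, and only Slc12a2 and Clcn2 overlap among neighbours.

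None of the 7 members passed the test for a difference between INK-ATTAC and control. In edgeR's quasi-likelihood test, adjusted by the Benjamini-Hochberg method across the whole table, each had an adjusted p of 1.00, and 0 of 7 had an unadjusted p under 0.05. In the whole table the same test called 0 of 17991 genes (0%), and 745 genes (4.14%) had an unadjusted p under 0.05, so the members' count is near the background. With DESeq2, 6 genes were called, and 2 were called by limma-voom when libraries were weighted by quality, none of them a member. The authors' deposited table, made with limma, called 3 of 14442 genes and 0 of the members. Of the 7 members, 3 were higher and 4 were lower in INK-ATTAC, with a median log2 fold change of -0.03, against a median of 0.00 over all genes tested. In each member the ranges of the groups overlapped, as they did in all but 4 genes (0.0222%) of the table.

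**Figure D2:**
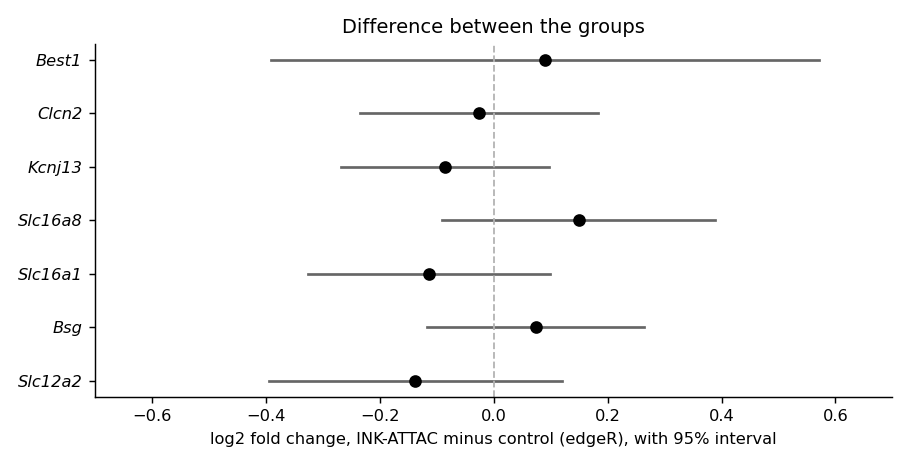
Log2 fold change of each member, INK-ATTAC minus control, from edgeR (points) with the 95% interval (lines). All 7 intervals cross 0, and Best1 has the widest.

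Best1 (ENSMUSG00000037418, chr19:9985174-10001633, minus strand) encodes bestrophin, a calcium-activated chloride channel of the basolateral RPE membrane. In control its level was lowest at 1.09 CPM, with a median of 3.49 and a highest value of 4.20, and in INK-ATTAC it was 2.39, 3.42 and 4.57 CPM. The groups overlapped, with control 5 (48 reads) below every other library and INK-ATTAC 8 above the highest control. The means were 3.23 ± 1.14 CPM (SD, n = 7) and 3.44 ± 0.62 CPM (SD, n = 8), and the edgeR log2 fold change was 0.09 (SE 0.22, unadjusted p = 0.689). It became -0.068 without control 5, 0.021 without INK-ATTAC 8 and 0.026 without control 3, and reached 0.17 without control 6. The 95% interval of the fold change was 0.763 to 1.49, the widest of the 7.

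Clcn2 (ENSMUSG00000022843, chr16:20702964-20717746, minus strand) encodes a chloride channel opened by hyperpolarization. It stood at 24.9, 31.8 and 33.8 CPM (lowest, median, highest) in control and at 23.0, 29.6 and 35.5 CPM in INK-ATTAC, and the control range lay inside the INK-ATTAC range. The edgeR log2 fold change was -0.03 (SE 0.10, unadjusted p = 0.788), with a 95% interval of 0.850 to 1.13 in fold. Without INK-ATTAC 3, the lowest library of that group, it was 0.019. The ends of Clcn2 share 85 exon bases with Fam131a and 82 with Polr2h, both on the opposite strand, and without strand those reads cannot be told apart.

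Kcnj13 (ENSMUSG00000079436, chr1:87386363-87394729, minus strand) encodes an inwardly rectifying potassium channel of the apical RPE membrane. Its level was 892, 1178 and 1308 CPM (lowest, median, highest) in control and 932, 1090 and 1293 CPM in INK-ATTAC, so the INK-ATTAC libraries all lay within the control range. The means were 1141 ± 138 and 1076 ± 118 CPM, with an edgeR log2 fold change of -0.09 (SE 0.08, unadjusted p = 0.325) and a 95% interval of 0.831 to 1.07 in fold. It was -0.14 without control 6 or without INK-ATTAC 2, and ranged up to -0.058 as other libraries were left out. Kcnj13 lies inside Gigyf2, which is on the opposite strand, and 623 of its 1270 exon bases are shared with Gigyf2 exons. Gigyf2 had 35976 reads over all libraries together, fewer than the 43131 to 66372 that Kcnj13 had in each.

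Slc16a8 (ENSMUSG00000032988, chr15:79251014-79254761, minus strand) encodes the basolateral lactate transporter of the RPE. It stood at 525, 646 and 774 CPM (lowest, median, highest) in control and at 547, 731 and 927 CPM in INK-ATTAC. INK-ATTAC 2, 4 and 6 lay above every control library, and the other 5 lay within the control range. The means were 657 ± 83.8 and 728 ± 133 CPM, with an edgeR log2 fold change of 0.15 (SE 0.11, unadjusted p = 0.195), the highest of the 7, and a 95% interval of 0.939 to 1.31 in fold. Without INK-ATTAC 2 the log2 fold change was 0.081, the lowest when each library was left out, and the highest was 0.20.

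Slc16a1 (ENSMUSG00000032902, chr3:104638668-104658462, plus strand) encodes the broadly expressed lactate transporter that the RPE places on its apical side. Its level was 367, 407 and 485 CPM in control and 272, 398 and 457 CPM in INK-ATTAC (lowest, median, highest). INK-ATTAC 3 and 8 lay below the control range and the other 6 inside it. The edgeR log2 fold change was -0.11 (SE 0.10, unadjusted p = 0.260), with a 95% interval of 0.798 to 1.07 in fold. Without INK-ATTAC 3 it was -0.054, and it ranged to -0.16 as each library was left out.

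Bsg (ENSMUSG00000023175, chr10:79704491-79711969, plus strand) encodes basigin, the chaperone of both lactate transporters, and also of other membrane proteins. It stood at 3450, 4166 and 5120 CPM (lowest, median, highest) in control and at 3922, 4433 and 5357 CPM in INK-ATTAC, and only INK-ATTAC 2 exceeded the highest control library. The means were 4233 ± 584 and 4455 ± 497 CPM, with an edgeR log2 fold change of 0.07 (SE 0.09, unadjusted p = 0.416) and a 95% interval of 0.922 to 1.20 in fold. As each library was left out it ranged from 0.021 (without INK-ATTAC 2) to 0.12 (without control 3), and it was 0.030 without control 4, 0.040 without INK-ATTAC 4 and 0.041 without control 6.

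Slc12a2 (ENSMUSG00000024597, chr18:57878678-57946821, plus strand) encodes the sodium-potassium-chloride cotransporter that loads the RPE with chloride. Its level was 70.0, 81.5 and 102 CPM (lowest, median, highest) in control and 52.0, 73.1 and 104 CPM in INK-ATTAC. Of the 8 INK-ATTAC libraries, 3 (numbers 3, 4 and 5) lay below the control range, and number 7 lay above it. The edgeR log2 fold change was -0.14 (SE 0.12, unadjusted p = 0.264), with a 95% interval of 0.761 to 1.09 in fold. It was -0.076 without INK-ATTAC 3, -0.080 without control 6 and -0.22 without INK-ATTAC 7. In the authors' deposited table Slc12a2 had the lowest p of the members, where its log2 fold change was -0.17 (adjusted p = 0.818).

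**Figure D3:**
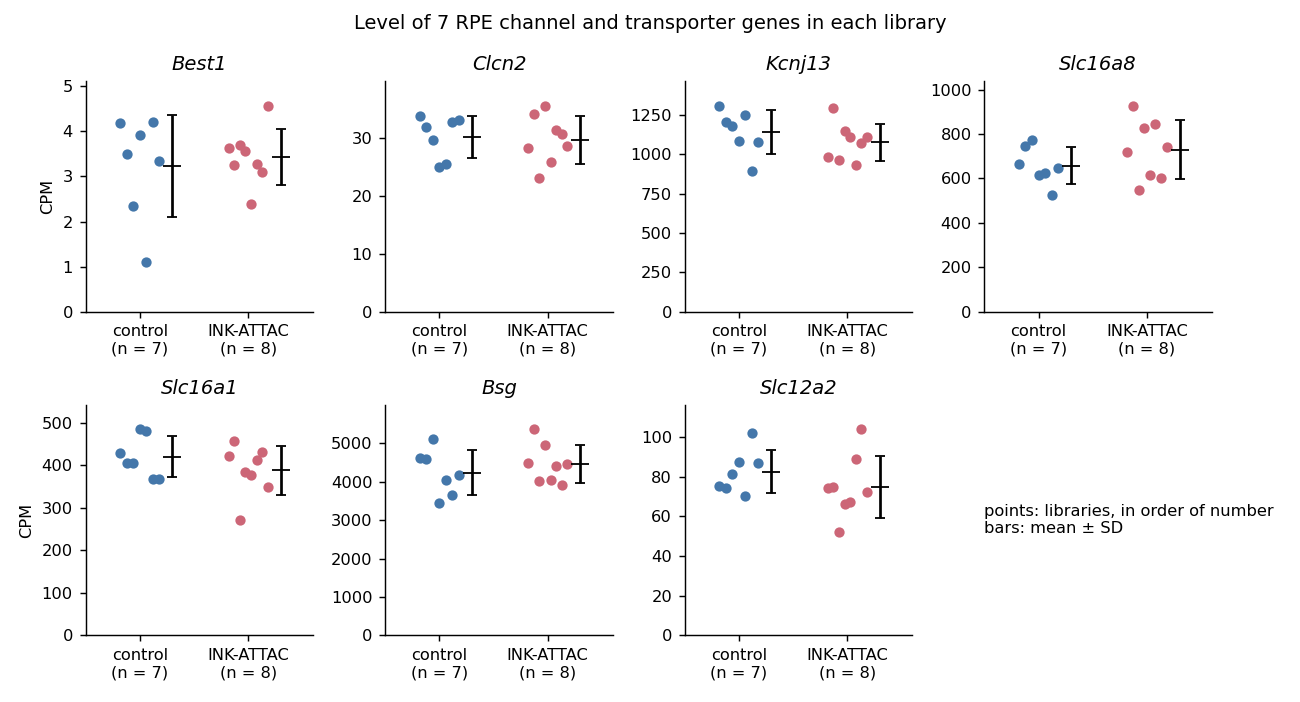
CPM of the 7 members in each library (points) with the mean and SD of each group (bars), each panel starting at 0. The groups overlap in every panel, and the control library at 1.09 CPM in the Best1 panel lies below the other 14.

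Because both lactate transporters act on the same substrate at opposite membranes, the ratio of their levels per kilobase was compared as well. This ratio and 3 others were chosen after the levels were seen, and each was tested by an exact two-sided permutation test over 6435 arrangements of the libraries, adjusted over the 4. Slc16a8 to Slc16a1 was 2.46 to 3.72 in control (median 3.01) and 2.71 to 4.17 in INK-ATTAC (median 3.93). The log2 difference was 0.26, with an exact permutation p of 0.0531 and an adjusted p of 0.106, so it did not pass. Slc16a8 to Kcnj13 had medians of 0.329 and 0.387, a log2 difference of 0.22, and the same exact permutation p of 0.0531 (adjusted 0.106). Bsg to Slc16a8 had medians of 8.11 and 7.70, with a log2 difference of -0.06 and an exact permutation p of 0.383. Kcnj13 to Best1 had medians of 654 and 616, with a log2 difference of -0.27 (exact permutation p = 0.450), which was -0.0058 without control 5.

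Slc16a8 and Bsg rose and fell together across libraries. Of the 21 pairs of members, theirs alone passed, with Pearson's r of 0.846 over 15 libraries (permutation test with 100000 resamples, adjusted p = 0.00168) and Spearman's rho of 0.871 (adjusted p = 6.3e-04). Without the 2 libraries farthest from the median, r was 0.752. Within control it was 0.850 and within INK-ATTAC 0.895, and it was 0.936 in the libraries of low Xist and 0.769 in those of high Xist. The highest levels of both genes were in INK-ATTAC 2 (Slc16a8 927 CPM, Bsg 5357 CPM). Slc16a1 and Bsg had r of 0.07 and rho of 0.07 over all libraries (unadjusted permutation p = 0.818 and 0.812). That pooled value covered r of 0.755 in low Xist and -0.475 in high Xist, and of -0.227 in control and 0.441 in INK-ATTAC. The difference between the classes was not tested, and the difference between the Slc16a8 and Slc16a1 correlations was not tested either. Kcnj13 and Bsg had r of 0.53 (rho 0.64), and Clcn2 and Bsg also had r of 0.53 (rho 0.57), and neither passed after adjustment.

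Of the 7 members, Kcnj13 had the highest correlation with the RPE markers. Its r with the mean log2 CPM of the 8 RPE markers was 0.864 over 15 libraries (permutation test, adjusted p = 0.00588 over 84 correlations of 7 members with 12 marker lists), and rho was 0.843 (adjusted p = 0.0126). Without the 2 libraries farthest from the median r was 0.793, and it was 0.963 within control, 0.830 within INK-ATTAC, 0.910 in low Xist and 0.796 in high Xist. Bsg had r of 0.746 (adjusted permutation p = 0.0473) and rho of 0.775 (adjusted 0.0475), close to the threshold. It was 0.716 within control, 0.818 within INK-ATTAC, 0.756 in low Xist and 0.435 in high Xist. Without the 2 farthest libraries r was 0.568 and no longer passed, so the call, though not the direction, depended on which libraries were kept. Leaving out each library in turn gave r of 0.653 to 0.803, and the adjusted permutation p was above the threshold when control 1, 4, 6 or 7 or INK-ATTAC 2, 3, 4 or 7 was left out. Slc16a8 had r of 0.630 (rho 0.625, adjusted permutation p = 0.112 for r), and 0.296 without the 2 libraries. Slc16a1, which is expressed in many cell types, had r of 0.422 (rho 0.343, adjusted permutation p = 0.347). Clcn2 had r of 0.358, Best1 -0.302 and Slc12a2 -0.338, each with an adjusted permutation p above the threshold. For each of these genes the value differed between classes. It was 0.866 in low Xist and -0.539 in high Xist for Clcn2, 0.049 and -0.834 for Best1, and 0.606 and -0.772 for Slc12a2. Slc16a8 (0.749 and 0.260) and Slc16a1 (0.797 and 0.282) were positive in both classes. The differences between classes were not tested.

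**Figure D4:**
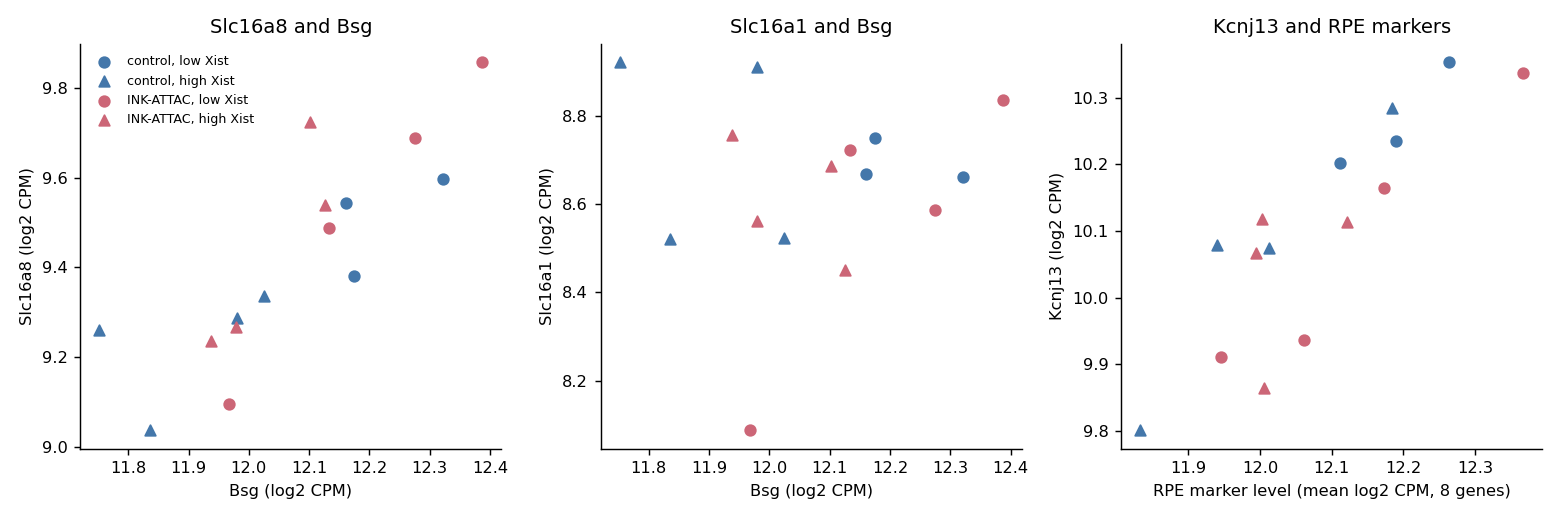
Log2 CPM of Slc16a8 and of Slc16a1 against Bsg, and of Kcnj13 against the mean log2 CPM of the 8 RPE markers, with 1 point per library, coloured by group and shaped by Xist level. Slc16a8 rises with Bsg (r = 0.846) and Kcnj13 with the RPE markers (r = 0.864), while Slc16a1 and Bsg have r = 0.07 over all libraries, with 0.755 in low and -0.475 in high Xist.

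With the 11 other marker lists, 1 further correlation passed. Slc16a1 and the 8 Schwann cell markers had r of -0.724 (adjusted permutation p = 0.0473), with rho of -0.729 (adjusted 0.0773, not past the threshold). Without the 2 farthest libraries r was -0.633 (unadjusted permutation p = 0.0130) and no longer passed after adjustment. Within control and INK-ATTAC r was -0.882 and -0.615. Of the Schwann cell markers, Pmp22, which encodes a myelin protein, stood at 515 CPM on average. With values centred on the group means, 2 more correlations passed, Slc12a2 with the pigment cell markers (r -0.802, adjusted permutation p = 0.0202, against r -0.645 and 0.112 uncentred) and Kcnj13 with the endothelial markers (r -0.712, adjusted permutation p = 0.0477, against r -0.686 and 0.0966).

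The genes whose log2 CPM followed each member most closely were taken from 11945 genes, over the same 15 libraries, with the measure of likeness being Pearson's r. For Kcnj13 they were Pon1 (0.926), Lrat (0.914), which encodes the enzyme that esterifies retinol and is itself an RPE marker, and Slc16a6 (0.892). For Bsg they were Ggact (0.951), Azin2 (0.925) and Rdh5 (0.922), the last an RPE retinol dehydrogenase. For Slc16a8 they were H2afj (0.949), Sys1 (0.934) and Chchd10 (0.924), and Bsg stood at rank 27 of that order. In the order for Bsg, Slc16a8 stood at rank 58. Thus each was among the closest genes of the other, though not the closest.

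For Slc16a1 the closest genes were Itgav (0.977), which encodes an integrin subunit used by the RPE in the uptake of outer segments, Abhd2 (0.946) and Basp1 (0.903). Slc12a2 was closest to Dnajc13 (0.937), Sfpq (0.930) and Bmpr2 (0.929). Clcn2 had lower values, with Srsf11 (0.867), Ptpn13 (0.836) and Sorl1 (0.827), and so did Best1, with Slc35a2 (0.858), Oasl1 (0.840) and Tmcc1 (0.834). No member was among the 3 closest genes of another. The libraries share their depth and tissue makeup across genes, and the r values of chosen genes are the top of many.

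An index of gene length was made after the data were seen, as the mean log2 CPM of 1284 long genes (at least 9914 exon bases) minus that of 1286 short genes (up to 1467 bases), centred over libraries. It was 0.07 ± 0.19 (SD, n = 7) in control and -0.06 ± 0.20 (SD, n = 8) in INK-ATTAC (exact permutation p = 0.207). Slc12a2, whose 10920 exon bases are more than in 91.9% of the genes compared, had r of 0.540 with it (rho 0.589), with adjusted permutation p values of 0.264 and 0.194 over 8 correlations, and none of the members passed. With the index as a covariate, the edgeR log2 fold change between the groups was -0.05 for Slc12a2 in place of -0.14, 0.26 for Best1 in place of 0.09, 0.07 for Slc16a8 in place of 0.15 and 0.03 for Bsg in place of 0.07. It was -0.15 for Kcnj13 (unadjusted p = 0.0684) and -0.17 for Slc16a1 (unadjusted p = 0.0775), and none of the members was called.

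Between the libraries of high and low Xist, with group as a covariate, 2 members had an unadjusted p under 0.05. Bsg was 4733 ± 449 CPM (SD, n = 7) in low Xist, with a range of 4006 to 5357, and 4017 ± 345 CPM (SD, n = 8) in high Xist, with a range of 3450 to 4470. The edgeR log2 difference, high minus low, was -0.23 (SE 0.07, unadjusted p = 0.00314), and its adjusted p of 0.231 did not pass. Slc12a2 went the other way, at 71.2 ± 9.54 CPM in low Xist and 84.8 ± 13.9 CPM in high Xist, with an edgeR log2 difference of 0.25 (SE 0.11, unadjusted p = 0.0336, adjusted p = 0.435). The classes overlapped in both genes. Across all genes tested, 1860 (10.3%) had an unadjusted p under 0.05 in this comparison and 32 (0.178%) passed after adjustment, none of which was a member. In edgeR's test of the interaction of group and class, 0 genes passed (858 at an unadjusted p under 0.05), and the lowest adjusted p of a member was 0.878. In the libraries of low Xist alone the log2 fold change of Bsg was -0.020, against 0.07 in all.

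**Figure D5:**
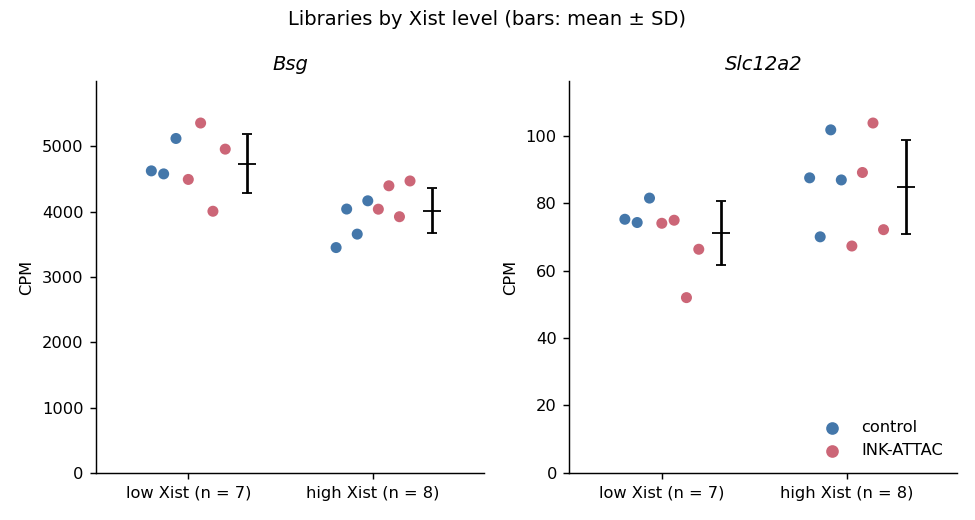
CPM of Bsg and Slc12a2 in the libraries of low and of high Xist (points, coloured by group) with mean and SD (bars), each panel starting at 0. Bsg averages 4733 in low and 4017 in high Xist, Slc12a2 averages 71.2 and 84.8, and the classes overlap in both.

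Genes of the same transport systems were counted in the INK-ATTAC comparison, and none was called by edgeR in any list. Of 21 other chloride channel genes tested, 10 were higher and 11 lower, with a median log2 fold change of -0.03. The highest in CPM were Lrrc8a, a subunit of the volume-regulated anion channel, at 263 ± 42.9 CPM in control and 266 ± 41.2 CPM in INK-ATTAC, and Clic6, at 220 ± 21.9 and 211 ± 38.9 CPM. Both thus differed between the groups by less than their SD. Of 17 other potassium channel genes, 9 were higher and 8 lower (median 0.05). Of these, Kcnj8 stood at 22.9 CPM on average, with a log2 fold change of -0.07.

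Of 11 other monocarboxylate transporter genes, 2 were higher and 9 lower in INK-ATTAC, with a median log2 fold change of -0.08 and 0 of them with an unadjusted p under 0.05. Slc16a9 stood at 94.7 ± 9.24 CPM in control and 88.6 ± 7.82 CPM in INK-ATTAC. Of 9 partners and relatives of basigin, 4 were higher and 5 lower (median -0.00044), led by Ppia, which encodes a cyclophilin that binds basigin, at 988 ± 124 and 956 ± 84.4 CPM, and by Lgals3, at 417 ± 44.2 and 438 ± 64.0 CPM.

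Of 12 cation-chloride cotransporter and kinase genes, 3 were higher and 9 lower (median -0.06, none with an unadjusted p under 0.05). Slc12a4, a potassium-chloride cotransporter gene, stood at 57.6 ± 9.73 and 56.8 ± 5.61 CPM, and Wnk1, a kinase gene that acts on these cotransporters, at 50.6 ± 8.27 and 50.7 ± 9.81 CPM. Of 13 sodium pump and sodium transport genes, 7 were higher and 6 lower (median 0.02). Of these, 1 had an unadjusted p under 0.05, namely Fxyd1, a regulator of the sodium pump, with 224 ± 15.7 CPM in control and 255 ± 28.0 CPM in INK-ATTAC (edgeR log2 fold change 0.19, SE 0.07, unadjusted p = 0.0172, adjusted p = 1.00). The pump subunit genes Atp1b2 and Atp1b1 had log2 fold changes of -0.03 and -0.06.

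Of 16 bicarbonate transport and carbonic anhydrase genes, 8 were higher and 8 lower (median 0.01). The anion exchanger gene Slc26a7 was the 1 gene with an unadjusted p under 0.05, at 110 ± 10.6 CPM in control and 94.9 ± 7.33 CPM in INK-ATTAC (edgeR log2 fold change -0.22, SE 0.07, unadjusted p = 0.00584, adjusted p = 1.00). Car14 and Car12, membrane-bound carbonic anhydrases, were the highest in CPM, at 1457 and 825 CPM on average. Of 15 glucose, taurine and other solute transport genes, 7 were higher and 8 lower (median -0.02), led by Slc6a13 (1108 CPM on average) and the glucose transporter gene Slc2a1 (733 CPM). Of 13 calcium channel genes, 10 were higher and 3 lower (median 0.08), and Cacnb1 had an unadjusted p of 0.0222 in edgeR (4.89 ± 0.89 CPM in control, 6.48 ± 1.63 CPM in INK-ATTAC, adjusted p = 1.00). Stim1, a sensor of calcium stores, led that list with 37.7 CPM on average, with Cacnb1 next at 5.73 CPM.

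Several lists of markers of other cells leaned one way between the groups. All 12 skeletal muscle markers were higher in INK-ATTAC (median log2 fold change 0.87, with 4 at an unadjusted p under 0.05 and 0 called), and their summed level was 260 to 2221 CPM in control and 629 to 3203 CPM in INK-ATTAC. All 10 lens markers tested were higher (median 2.84, with 7 at an unadjusted p under 0.05 and 0 called). Their summed levels over 12 markers were 2.82 to 828.6 CPM in control and 5.30 to 4046 CPM in INK-ATTAC. Over all genes tested, 4.14% had an unadjusted p under 0.05. Markers of a list can vary together, so these counts are not of independent genes. Cryaa, for example, was at 84.9 ± 192 CPM in control and 336 ± 681 CPM in INK-ATTAC. The 4 muscle genes were Acta1, Atp2a1, Ckm and Tnnc2, which encode contractile proteins, a calcium pump and a kinase, and the 7 lens genes were Cryba1, Cryba4, Crybb1, Crygb, Crygc and Crygd, which encode crystallins, and Bfsp1, which encodes a lens filament protein. Of the rod markers, 11 of 12 were lower (median -0.25), and all 8 erythrocyte markers were lower (median -0.45), with none at an unadjusted p under 0.05. By contrast the 8 RPE markers were split, with 5 higher and 3 lower (median 0.03), and all 8 pigment cell markers were slightly lower (median -0.05). No marker in these lists was at 0 in all libraries. The members' log2 fold changes moved when such a level was a covariate in edgeR. With the skeletal muscle level, Bsg went from 0.07 to 0.0085, Slc16a8 from 0.15 to 0.07, Slc12a2 from -0.14 to -0.08 and Slc16a1 from -0.11 to -0.18. With the lens level, a covariate added after the data were seen, Slc16a1 was -0.03, Slc12a2 -0.04, Bsg 0.03 and Best1 0.0097. With the rod level, Slc16a8 was 0.10 and Bsg 0.05. No member was called with the RPE, rod, muscle, lens or erythrocyte level as a covariate, as none was without one.

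Across libraries, the lens markers had r of -0.623 with Slc12a2 and -0.607 with Slc16a1 (adjusted permutation p = 0.112 for both, rho -0.557 and -0.504), and without the 2 farthest libraries r was -0.325 and -0.312. The erythrocyte markers had r of 0.296 with Bsg (rho 0.514, adjusted permutation p = 0.487 for r). Without the 2 farthest libraries r was 0.809 (unadjusted permutation p = 8.7e-04), which passed after adjustment, so the call depended on which libraries were kept. For this pair r was 0.872 within control and -0.157 within INK-ATTAC. The skeletal muscle markers had r of 0.423 with Slc16a8 and 0.394 with Bsg, neither past the threshold. Without the 2 farthest libraries these were 0.764 and 0.717. They were -0.105 and 0.051 within control, and 0.750 and 0.780 within INK-ATTAC.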

How the data were processed

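RNA was collected from RPE/choroid in TRIzol, purified on columns and amplified with SMARTer chemistry, per the labels' protocols. The submitters' processing notes name bcl2fastq, DRAGEN, edgeR, limma and GRCm38. Not given in the sources used here are the counting program, its strand setting and its annotation. The authors deposited raw counts per gene and library in 40757 entries, of which 276 were repeats with identical counts and were collapsed. They also deposited a comparison table with, per the file headers, log2 fold changes and p-values, which is quoted only where it is named. The values of log2 CPM in that authors' deposited table were not used.

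Counts were scaled with TMM and filtered with filterByExpr in edgeR 4.0.16 (R 4.3.3), and tested with its quasi-likelihood F-test, two-sided, with Benjamini-Hochberg adjustment over 17991 genes and a threshold of 0.05. The script was tested on simulated data. SE is the log2 fold change over the root of F, and the 95% intervals use the t distribution on 13 degrees of freedom. Correlations used log2 CPM with a prior count of 0.5. Exon lengths and positions came from GENCODE M21 and promoters from RefSeq. Python 3.11.15 ran the correlations.

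All members are named. Of other lists, genes with an unadjusted p under 0.05 and the 2 most abundant genes of the lists described are named, and for each member the 3 genes of highest r. Some genes that this rule names are not reported here. The members and lists were chosen with earlier results of these data known. DESeq2 1.42.0 and limma 3.58.1, other filters and scaling, RPE, rod, muscle and Xist covariates and leaving out each library were alternatives. The length index, lens and erythrocyte covariates, the ratios, the block by description numbers and the alternatives for ratios and pairs were added after the data were seen. The lowest chi-square per gene between libraries of a group was 27.6, so no library repeated another. Counts of amplified reads are not independent molecules.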

Additional observations from a re-analysis of the deposited data

Results flagged for a closer look

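In 1 of 14 combinations of member and group, a library stood apart by Dixon's test, and chance gives about 1 in 20 such results. Best1 in control 5 was at 1.09 CPM (48 reads), and the next library of that group was at 2.35 CPM. The test was run on log2 CPM, not on CPM. On that scale the gap was 0.5682 of the range of the group, only just past the critical value of 0.568.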

How the results depend on the processing

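Over 224 alternative values of the members' log2 fold changes, 221 kept their direction, and adjusted p ran from 0.518 to 1.00. The 3 that turned were Bsg at -0.020 in the libraries of low Xist alone, Best1 at -0.068 without control 5 (range -0.068 to 0.17 when each library was left out) and Clcn2 at 0.019 without INK-ATTAC 3 (range -0.078 to 0.019). The number of genes called was 0 and became 6 with DESeq2, 2 with limma-voom with sample quality weights and 1 with the length index as a covariate, and the cause was not tested. With the replicate block, which left out INK-ATTAC 8, 0 genes were called, 734 had an unadjusted p under 0.05, and the log2 fold change of Slc12a2 was -0.15. The sample descriptions carry other numbers, and a replicate block on these, added after the data were seen and without INK-ATTAC 1, called 0 genes (758 at an unadjusted p under 0.05), with -0.16 for Slc12a2. Whether either set pairs the samples cannot be told from the 7 numbered pairs that each gives. Same-numbered libraries had correlations of -0.098 to 0.271 by title and -0.147 to 0.204 by description. By title 1 of 7 controls, and by description 0 of 7, correlated best with its own number. Of the 7 same-numbered pairs, 6 by title and 7 by description were of the same Xist class. The members correlated with the RPE markers numbered 2, against 1 without the 2 farthest libraries and 1 to 2 when each library was left out. The pairs of members past the threshold numbered 0 in the libraries of low Xist alone and 0 in those of high Xist alone, where fewer libraries entered. Low depth limits Best1 most, with 48 to 255 reads.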
